A study of Anas platyrhynchos with 2 samples.

Results

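The genes described here lie on small autosomes of the Fujian Longyan Shan-ma duck (Anas platyrhynchos) that have few genes in the count table for their size. Sparse here means sparse in genes of that table. An autosome was taken when the end of its last gene lay under 10 Mb and when it had fewer than 10 genes of the count table per Mb of that span. Of 39 autosomes, 16 ended under 10 Mb, and 8 of these were gene-sparse: chromosomes 30, 31, 32, 35, 36, 37, 38 and 39. They held 188 of the 11383 genes in the table. The other 8 small autosomes held 1423 genes and are called the denser small autosomes.

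The RNA was sequenced for a near-complete genome assembly of this breed. Each of the 2 labels has 1 RNA-seq library, so there was no replication. The label of library A gives 5 organs: blood, stomach, intestine, liver and pancreas. That of library B gives 9: brain, eye, heart, lung, kidney, spleen, muscle, skin and ovary. The series text gives another account, of an adult female and an adult male with testis in place of ovary, and of RNA from all tissues combined in equal amounts. The labels name no sex, age or treatment, and the alignment named in each count table does not carry the library name on its label, so values are given by library and not by organ or sex. Counted reads numbered 20047449 for library A and 41792653 for library B. No organ marker could be looked up, because the gene IDs matched 0 of the 26024 genes of a reference table of the duck.

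Bird genomes are divided into a few large chromosomes and many small ones, the microchromosomes. Microchromosomes are known in birds for short introns, a high content of G and C and a high density of genes. The smallest of them are rich in repeats and were long missing from assemblies, so their genes are among the least described in birds.

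The genes of the sparse chromosomes were lower in level than genes elsewhere, lay in patches between wide gaps, and shared their exon structure with another gene more often than the table as a whole. Their median level was 2.91 RPKM (reads scaled to exon length and library size, mean of both libraries), against 9.40 RPKM over all genes and 11.1 RPKM on the denser small autosomes. Of the 188 genes, 136 (72.3%) lay in clusters of at least 3 genes, a smaller share than the 82.1% of all genes and the 98.1% on the denser small autosomes. These clusters together covered 6.11% of the chromosomes' span, a share that was not computed for other genes. The wide gaps follow in part from the rule, which took chromosomes with few table genes per Mb. A gene with the same inner exon lengths elsewhere in the table existed for 35 of the 188 (18.6%), against 4.16% of all genes. They were unevenly spread, with 13 on chromosome 38, 8 on chromosome 36 and 0 on chromosomes 31 and 32. Chromosomes 36 and 38 carried 16 pairs of alike genes in the same order.

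Inside the limits of the rule, chromosome 31 was the longest at 7.99 Mb and chromosome 38 the densest at 6.77 genes per Mb. The nearest outside were chromosome 33, with 7.25 genes per Mb but 10.8 Mb long, and chromosome 25, with 10.3 genes per Mb over 10.03 Mb. Their median levels were 9.08 and 8.76 RPKM. Among the denser small autosomes the lowest density was 18.1 genes per Mb, on chromosome 23.

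**Figure D1:**
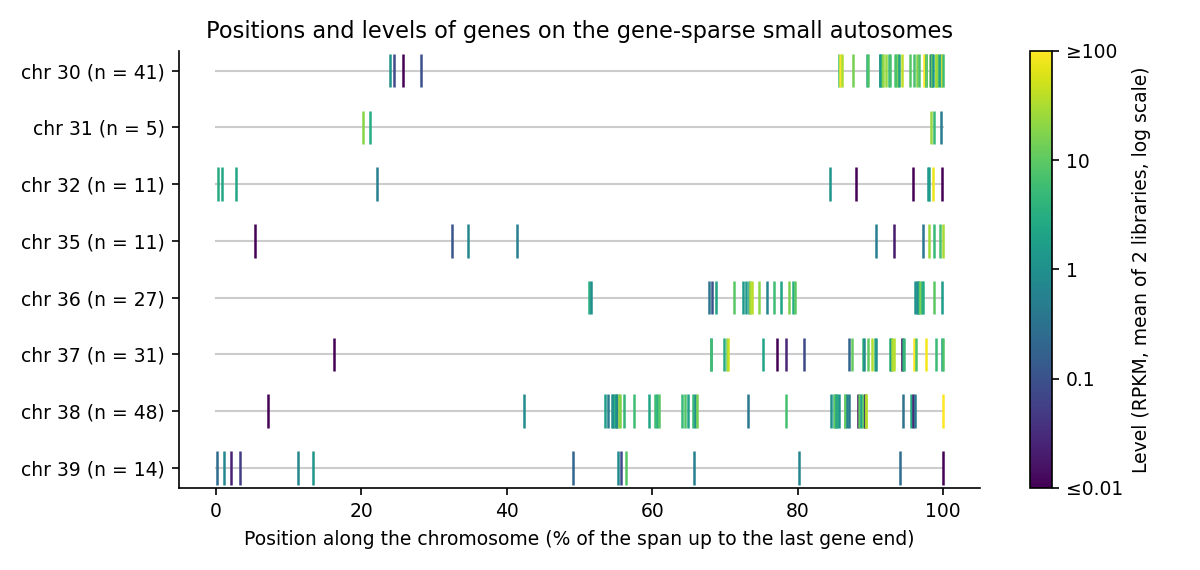
Position of each of the 188 genes along its chromosome, in percent of the span up to the last gene end, with 1 tick per gene coloured by level (RPKM, mean of 2 libraries, log scale). The ticks lie in patches separated by long stretches without table genes. In the last 10% of the span fall 77 of the 188 ticks, 31 of them on chromosome 30.

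Genes were spread unevenly along the 8 chromosomes. Of the 188 genes, 164 (87.2%) lay beyond the midpoint of the span and 77 (41.0%) in its last 10%, against 37.9% and 6.32% of the genes on the denser small autosomes. The chromosomes differed in this. Of the 77 genes, 31 lay on chromosome 30 and 15 on chromosome 37, while chromosome 38 had 5 of its 48 genes in the last 10%. Chromosome 39 had 2 of its 14 genes there and 7 beyond the midpoint. The span ends at the last gene by definition, and the true chromosome ends are not in the count tables. The widest gap between neighbouring genes on each chromosome added up to 22.1 Mb of 43.8 Mb, or 50.5%, a share not computed for other chromosomes. On 7 of the 8 chromosomes this gap was over 1 Mb, the exception being chromosome 36 with 0.776 Mb.

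The gaps differed in how many gene ID numbers they skipped. IDs run in steps of 10, and 188 of the 1012 numbers used up to the last gene of each of these chromosomes are in the table (18.6%). On chromosome 30 the gap from 2052261 to 6220052 skipped 178 numbers, which is 42.7 per Mb. The gap on chromosome 31, from 1707631 to 7850477, skipped 159 numbers, and that on chromosome 32, from 997172 to 3785756, skipped 90. On chromosome 37 the gap from 906672 to 3771548 skipped 9 numbers, or 3.14 per Mb. On chromosome 38 it was 12 numbers between 513851 and 2999254, or 4.83 per Mb. What the absent numbers stand for was not analysed here, so sparse means sparse in genes of the table.

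Neighbours were farther apart than on the denser small autosomes. This follows in part from the rule, which took chromosomes with few genes per Mb. With a cluster defined as at least 3 genes separated by at most 50 kb, there were 22 clusters covering 2.68 Mb. Of these, 5 had at least 10 genes and together held 64 genes. The median distance between neighbours was 13530 bp, against 3958 bp on the denser small autosomes and 12076 bp over all genes. A distance over 100 kb was found in 36 of 180 cases (20%), against 14.5% over all genes and 2.61% on the denser small autosomes. A distance under 1 kb was found in 21 of 180 (11.7%), against 13.9% and 23.4%. Neighbours lay on the same strand in 95 of 180 cases (52.8%), against 52.7% over all genes.

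Most genes of the sparse chromosomes were in the lower part of the distribution of levels. The quartiles of their level were 0.730 and 9.07 RPKM, against 3.69 and 22.7 RPKM over all genes. The median was 2.84 RPKM in library A and 2.93 RPKM in library B. Of the 188 genes, 94 (50%) were in the lowest 20% of all genes and 20 (10.6%) in the highest 20%. A level under 1 RPKM was found for 55 genes (29.3%), against 6.55% of all genes and 6.04% on the denser small autosomes. In a bulk sample, RNA from fewer cells and less RNA per cell cannot be told apart.

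The median gene of the sparse chromosomes had 122 and 275 reads in libraries A and B, against 706 and 1496 over all genes. Fewer than 10 reads over both libraries were counted for 21 genes (11.2%), against 0.896% of all genes. No read at all was counted for 7 genes, which is 7 of the 31 such genes in the whole table. With a floor of 3 counts for such a gene, the upper limit was 0.150 CPM (reads scaled to library size) for library A and 0.0715 CPM for library B. The 7 genes lay at 4479386-4488987 on chromosome 32, at 202907-210547 on chromosome 35, at 510089-513850 on chromosome 38 and at 2834490-2837070 on chromosome 39. The remaining ones lay on chromosome 37, at 895604-906671, 4274926-4275938 and 5222678-5226908. They had between 3 and 9 exons, and on chromosomes 35, 37 and 38 the first gene of the chromosome was among them.

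**Figure D2:**
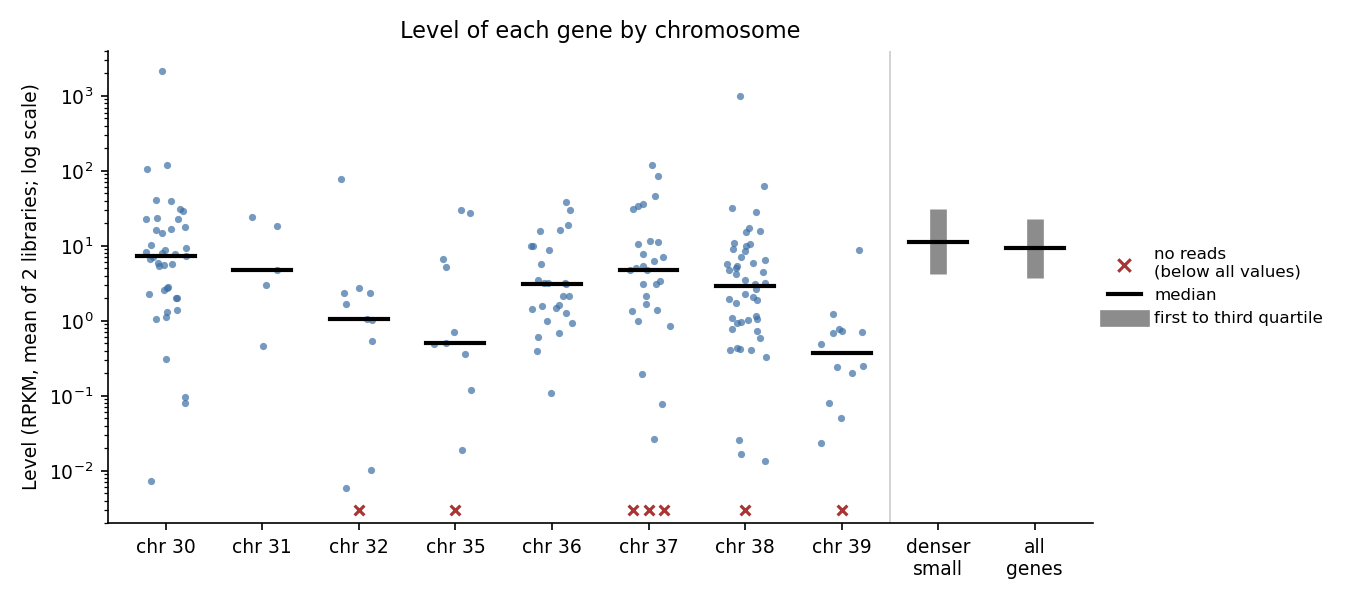
Level of each gene (RPKM, mean of 2 libraries, log scale) on the 8 gene-sparse small autosomes, with the median as a line and genes without reads as crosses; grey bars give the quartiles of the denser small autosomes and of all genes. The medians run from 0.372 RPKM on chromosome 39 to 7.22 RPKM on chromosome 30, all below the 9.40 RPKM of all genes.

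A handful of genes stood far above the rest. The gene of highest level, Apl_30G0001950 on the plus strand of chromosome 30 at 6234740-6250759, had 10 exons, with 63105 reads from library A and 138033 from library B. Its levels of 2130 and 2219 RPKM in these libraries gave it rank 13 among all genes of the table. The second, Apl_38G0001200 on the minus strand of chromosome 38 at 7087688-7095195, had 2 exons and 30506 and 87627 reads. With 833 RPKM in library A and 1140 RPKM in library B it had rank 55, and it was the last gene of its chromosome. These genes carried 56.6% of the reads on the sparse chromosomes in library A and 58.9% of those in library B.

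The 188 genes were 1.65% of the genes in the table and drew 0.826% of the reads in library A (Clopper-Pearson 95% interval 0.822 to 0.830) and 0.917% in library B (0.914 to 0.920). Without the 2 highest genes the shares were 0.359% and 0.377% of the same totals. The intervals cover counting error only. Above 100 RPKM there were 3 more genes. One on chromosome 30 at 7067965-7094403, with 23 exons, had 7502 and 16173 reads and a level of 118 and 121 RPKM in libraries A and B. Another on that chromosome, at 7256366-7257737, had 3 exons of 420 bp in all, 810 and 2045 reads, and a level of 96.6 and 116 RPKM. The one on chromosome 37, at 5315581-5325027, had 2483 and 5442 reads and a level of 117 and 123 RPKM.

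Levels differed with the position and the structure of the genes. Genes in clusters had a median of 4.60 RPKM (136 genes) and genes outside clusters 0.750 RPKM (52 genes), of which 28 were under 1 RPKM and 14 had fewer than 10 reads. Over all genes the same split gave 10.2 and 6.41 RPKM, and on the denser small autosomes 11.3 and 2.12 RPKM. Genes with 1 or 2 exons had a median of 1.34 RPKM, those with 3 to 6 exons 1.32 RPKM, those with 7 to 10 exons 3.05 RPKM and those with at least 11 exons 7.11 RPKM. Over all genes those medians were 4.22, 9.81, 11.6 and 9.23 RPKM. As a ratio of medians, the genes with at least 11 exons were nearest to all genes and those with 3 to 6 exons farthest below.

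The distance to other genes was also present within classes of exon length, and as a ratio it was widest for short transcripts. Genes with under 1000 bp of exon had a median of 0.908 RPKM (36 genes), against 24.4 RPKM over all genes of that length and 36.3 RPKM on the denser small autosomes. From 1000 to below 3000 bp the medians were 3.15 RPKM on the sparse chromosomes and 13.0 RPKM over all genes. At 3000 bp or more they were 2.33 and 7.83 RPKM.

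Chromosome 30, with 41 genes over 7.27 Mb, had the highest median level of the 8 at 7.22 RPKM. Before its gap lay 4 genes with a median of 0.0873 RPKM, and after it 37 genes with a median of 8.12 RPKM. The 4 early genes had up to 1.13 RPKM. Its last cluster, at 6934562-7271031, was the largest of all, with 19 genes in 336 kb and a median of 8.67 RPKM. The cluster before it, at 6634867-6861898, held 12 genes between 1.30 and 41.3 RPKM. This chromosome carried 0.425% of the reads of library A and 0.451% of library B.

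Chromosome 31 had 5 genes in 7.99 Mb, the lowest density of all at 0.625 genes per Mb. They had long spans, with a median of 25677 bp and up to 59762 bp. The highest, at 7850478-7876154, had 520 and 1199 reads and 24.2 RPKM. The lowest, at 7933881-7993642, had 38 exons, the most of any of the 188 genes, with 53 and 119 reads and 0.465 RPKM.

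Chromosome 32 had 11 genes with a median of 1.05 RPKM. One gene stood out, at 4415377-4430075, with 4279 reads from library A and 8704 from library B, or 80.1 and 77.6 RPKM. The other 10 did not exceed 2.74 RPKM, and all 10 were in the lowest 20% of the table. Chromosome 35 also had 11 genes, with a median of 0.505 RPKM. Its 4 genes before the gap had a median of 0.311 RPKM, and the cluster at 3700273-3807351 held 5 genes with a median of 6.62 RPKM. The highest of these, at 3800765-3807351, had 694 and 1594 reads and 29.99 RPKM.

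Chromosome 36 had 27 genes with a median of 3.08 RPKM, none of them under 10 reads. Its first gene started at 2457665, beyond the middle of the span. The cluster at 3409182-3821736 held 13 genes in 413 kb with a median of 5.71 RPKM. The highest level was at 3520309-3540153, with 3912 and 7881 reads and 38.4 RPKM. The lowest was at 3256830-3269621, with 5 and 18 reads and 0.109 RPKM.

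Chromosome 37 had 31 genes with a median of 4.75 RPKM, and 3 of them had no reads. The one at 895604-906671 lay alone before the widest gap. The one at 4274926-4275938 lay between genes of 2.17 and 0.0262 RPKM. The gene without reads at 5222678-5226908 lay in a cluster with genes of 3.08 and 4.79 RPKM. Close by, the cluster at 5130513-5166445 held 4 genes from 1.41 to 36.5 RPKM. Of its 31 genes, 5 (16.1%) had a single exon, against 1.30% of all genes. Across all sparse chromosomes there were 9 such genes (4.79%).

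Chromosome 38 was the richest, with 48 genes over 7.10 Mb and a median of 2.89 RPKM. Its 6 clusters differed in level, from a median of 0.413 RPKM for 3 genes at 6782331-6822145 to 7.73 RPKM for 8 genes at 6265207-6350471. Of its genes 14 were under 1 RPKM and 10 over 10 RPKM. Chromosome 39 was the smallest at 2.84 Mb and the lowest in level, with a median of 0.372 RPKM over 14 genes. Only the single-exon gene at 1597311-1604189 passed 2 RPKM, with 1238 and 2490 reads and 8.82 RPKM, and 12 of the 14 were under 1 RPKM.

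The genes of the sparse chromosomes were short. Their median span was 6825 bp, against 7321 bp on the denser small autosomes and 16569 bp over all genes. The median exon length per gene was 1963.5 bp, against 2413 and 3260 bp, and the median number of exons was 7, against 8 and 9. The median intron of 711 bp lay between the 404 bp of the denser small autosomes and the 903 bp of all genes.

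Inner exons, those between the first and the last of a gene, had a median length of 123 bp, against 124 bp over all genes and 123 bp on the denser small autosomes. Certain lengths were more frequent, mostly on chromosomes 32, 36 and 38. Of 1132 inner exons 51.8% had a length that was a multiple of 3, against 40.6% over all genes and 42.3% on the denser small autosomes. An exon whose length is a multiple of 3 can be skipped or repeated without a shift of the reading frame. The share was highest on chromosomes 36 (74.1%), 32 (63.6%) and 38 (60.7%), and it was 30.4% on chromosome 35 and 37.9% on chromosome 30. Lengths of 300 to 360 bp made up 12.8% of the inner exons, against 1.19% over all genes. On chromosome 32 they made up 34.8%, on chromosome 36 30.1% and on chromosome 38 17.7%. The share on chromosome 32 was 23 of 66 inner exons, most of them in 3 genes of alike structure described below. Those 3 genes also held many of its 42 inner exons with a length that was a multiple of 3. Alike genes repeat the same exon lengths, so these exons are not independent.

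**Figure D3:**
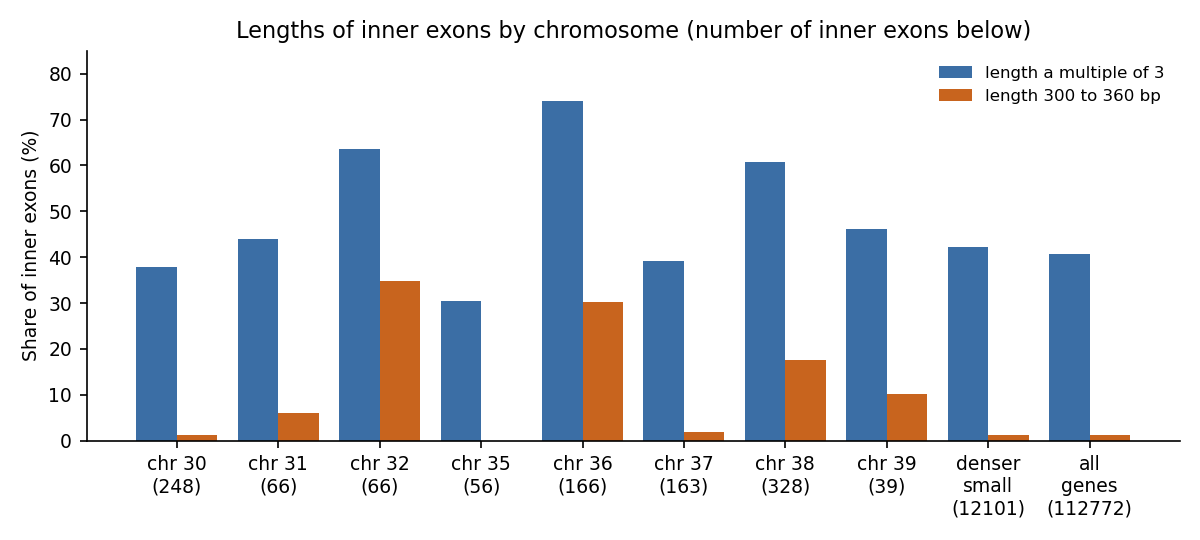
Share of inner exons (%) whose length was a multiple of 3 (blue) and whose length was 300 to 360 bp (orange) on each gene-sparse small autosome, on the denser small autosomes and over all genes, with the number of inner exons in brackets. Chromosomes 32, 36 and 38 are high in both, with 34.8%, 30.1% and 17.7% at 300 to 360 bp against 1.19% over all genes. On chromosome 32 most exons of 300 to 360 bp are in 3 genes of alike structure.

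Chromosomes 36 and 38 shared a further feature, strings of inner exons of the same length. A run of at least 5 equal inner exons occurred in 14 of the 188 genes, 7 on each of these chromosomes, and in 54 genes (0.474%) of the table. The longest runs were 9 exons of 324 bp, in the gene at 3520309-3540153 on chromosome 36 and in that at 3934619-3954034 on chromosome 38. Their levels were 38.4 and 17.3 RPKM. Runs of 315, 339 and 156 bp occurred in the genes on chromosome 36 at 3256830-3269621, 3697239-3738973 and 3600448-3645776, whose levels were 0.109, 2.16 and 0.692 RPKM.

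Very short exons of 27 bp made up the other runs. There were 72 inner exons of 27 bp in 21 genes, 25 in 8 genes of chromosome 36 and 47 in 13 genes of chromosome 38, and none on the other 6 sparse chromosomes. The table had 239 such exons in 148 genes. In 4 genes of 13 exons the inner exons were, in order, 125, 357, 285 and 99 bp, then 5 of 27 bp, then 21 and 27 bp. These genes lay at 3804504-3821736 on chromosome 36, with 9.98 RPKM, and at 4311261-4326864, 4684653-4699197 and 5551000-5565051 on chromosome 38, with 8.97, 15.3 and 6.51 RPKM.

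Genes with a structural copy were those for which another gene of the table had the same number of exons and the same inner exon lengths in order, with at least 2 inner exons. The share of 18.6% on the sparse chromosomes compared with 5.13% on the denser small autosomes. By chromosome, such genes numbered 13 on 38, 8 on 36, 6 on 30, 5 on 39, 2 on 37 and 1 on 35. There were 0 on chromosomes 31 and 32, and the share on chromosome 37 was 6.45%. The copy lay on another sparse chromosome for 18 genes, all of them on chromosomes 36 and 38. It lay on the same chromosome for 9, on an unplaced contig for 9 and on another chromosome for 4, where a gene could have several. The median level was 5.61 RPKM for the 35 genes with a copy and 2.33 RPKM for the 153 without. Over all genes these medians were 11.4 and 9.31 RPKM, and on the denser small autosomes 17.0 and 11.1 RPKM. Genes with fewer than 2 inner exons all fell among those without a copy by definition, and the groups were not matched for exon number. Every exon length was shared with another gene for 10 genes (5.32%), against 0.316% of all genes. Multi-mapping reads are missing from the counts and sequences were not compared, so the levels of alike genes are uncertain.

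The most regular array was at the start of chromosome 39, where 4 genes of 5 exons and 3072 bp followed each other on the plus strand. They started at 441, 28604, 56780 and 93457, in steps of 28163, 28176 and 36677 bp. Their inner exons were 123, 337 and 189 bp in each. The first had 19 reads from library A and 22 from library B, the second 58 and 65, the third 0 and 6 and the last 1 and 11. The counts were low in all 4, and the levels ran from 0.0233 to 0.725 RPKM.

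Other pairs with all exon lengths equal were low as well. On chromosome 30 the genes at 1869443-1872459 and 2049244-2052260, each 1626 bp of exon, had 0 and 1 read and 0 and 13 reads in libraries A and B. On chromosome 39 the genes of 593 bp at 2270903-2276197 and 2665698-2670981 had 7 and 20 reads and 5 and 2 reads. On chromosome 38 the genes of 913 bp at 6696785-6700498 and 6799411-6803125 lay on opposite strands and had 12 and 0 reads and 0 and 2 reads. All of these genes were under 1 RPKM.

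A looser comparison grouped genes of 1 chromosome that shared at least 3 inner exon lengths and 0.5 of those of the longer gene, and it gave 11 families of 34 genes (18.1%). A trio on the minus strand of chromosome 38 was the most abundant family. Its genes at 6325636-6334899, 6337115-6341451 and 6342659-6350471 shared inner exons of 104, 155, 169 and 124 bp and of 215, 109 and 204 bp. Reads were 215, 2507 and 1358 for library A and 491, 5648 and 3163 for library B. Their levels of 5.40, 62.2 and 31.8 RPKM had the same order in both libraries.

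A family of low level was on chromosome 32, with exons of 315, 309, 306 and 327 bp. Its genes at 988813-997171, 3785757-3794422 and 3943388-3951892 had 34, 71 and 0 reads from library A and 54, 93 and 2 from library B. The largest family had 8 genes on chromosome 38 between 3975581 and 5565051, all with exons of 27 bp, at levels of 1.15 to 15.3 RPKM. The pair on chromosome 35 at 3743400-3774315 and 3785770-3791820 had 5.23 and 6.62 RPKM. The pair on opposite strands of chromosome 30 at 6795558-6810949 and 6813085-6826128 had 7.14 and 16.2 RPKM.

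Chromosomes 36 and 38 could be aligned gene by gene. Going along both, 16 pairs of genes on the same strand shared at least 0.5 of the inner exon lengths of the longer gene, in the same order. The pairs took in 59.3% of the 27 genes of chromosome 36, from 3457467 to 4785329, and 33.3% of the 48 genes of chromosome 38, from 3869922 to 6183881. All inner exon lengths were equal in 8 pairs, and 126 inner exon lengths were shared in all. With at least 2 shared lengths required there were 14 pairs, and at most 2 in any of the other 27 pairings of the 8 chromosomes. For 6 of the 16 genes of chromosome 36, in pairs 4, 6, 8, 9, 10 and 11, chromosome 38 held more than 1 gene that met this criterion, and the assignment shown is the one with the highest sum of shared portions.

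**Figure D4:**
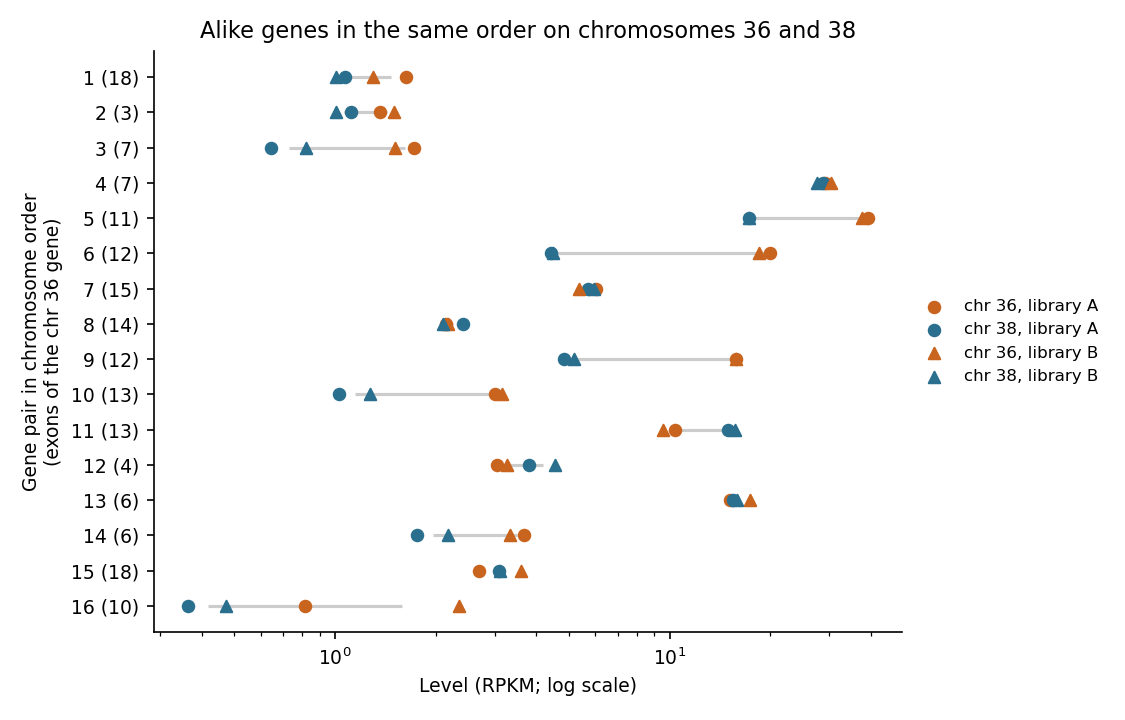
Level (RPKM, log scale) of the 16 pairs of alike genes in chromosome order, for chromosome 36 (orange) and chromosome 38 (blue) in library A (circles) and library B (triangles), with grey lines joining the means; the number of exons of the gene on chromosome 36 is in brackets. The pairs span about the same range on both chromosomes, and 10 of 16 differ by less than 2-fold.

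Alike genes ranked in a similar order of level on both chromosomes, while 6 of the 16 pairs differed by more than 2-fold. The median was 3.33 RPKM for the genes on chromosome 36 and 3.64 RPKM for those on chromosome 38. Spearman's rho across the 16 pairs was 0.91, a description without a test, since the pairs share libraries. Reads that map to both genes of a pair are missing from the counts, so these levels are uncertain. The gene on chromosome 36 was higher in 12 pairs and that on chromosome 38 in 4. These counts and folds depend on the assignment. In pair 10 the gene on chromosome 36 had 3.08 RPKM and its assigned partner 1.15 RPKM. Its structural copy at 4294225-4307642 on chromosome 38, which was not assigned, had 3.53 RPKM. In pair 11 the levels were 9.98 and 15.3 RPKM, and another copy at 4311261-4326864 on chromosome 38 had 8.97 RPKM. The fold between the members of a pair had a median of 1.48 and ran from 1.02 to 4.31. The sign of the difference was the same in both libraries for 12 of the 16 pairs.

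Pair 4 was among the closest. The gene at 3513326-3519820 on chromosome 36 had 1029 and 2252 reads, and that at 3926806-3933400 on chromosome 38 had 999 and 2013, for levels of 29.8 and 28.1 RPKM. In pair 5, the genes with 9 exons of 324 bp, the one on chromosome 36 had 3912 and 7881 reads and the one on chromosome 38 had 1371 and 2887, a difference in level of 2.22-fold present in both libraries. The widest difference, 4.31-fold in pair 6, was between genes of 1464 and 10604 bp of exon. There the gene on chromosome 38 had more reads, 937 and 1992 against 583 and 1133, and the lower level of 4.45 RPKM came with its longer exons.

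A group of 3 neighbours, the genes of pairs 9 to 11, recurred as a set. On chromosome 36 they lay at 3764626-3781252, 3787308-3800913 and 3804504-3821736, on the minus, minus and plus strands, with 15.8, 3.08 and 9.98 RPKM. On chromosome 38 a set with the same strands started at 4272929, with 5.66, 3.53 and 8.97 RPKM, and another at 4646612, with 5.02, 1.15 and 15.3 RPKM. The middle gene was the lowest of each set.

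The libraries were close to each other for most genes of the sparse chromosomes. Of the 188 genes, 167 had at least 10 reads in 1 library, as had 11256 of all genes. The log2 ratio between libraries, positive where library B was higher, had a median of 0.08 and quartiles of -0.13 and 0.31, and it was positive for 107 genes (64.1%), against 49.5% of all genes. On the denser small autosomes the median was 0.04 and 870 of 1404 genes (62.0%) were positive, so a positive ratio was about as frequent there. Chromosome 30 had the highest median at 0.19 and chromosome 39 the lowest at -0.06. With 1 library per label no test of these differences exists.

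The fitted ratio, which includes the prior count of 2, passed 4-fold for 3 of the 167 genes, 2 toward library B and 1 toward library A, and for 0.133% of all genes, 0.0888% toward library B and 0.0444% toward library A. Each of the 3 had a count of 0 in 1 library. They met the limit of reads only through the library where they were higher, so the limit fixed part of each ratio. The shares past 4-fold were not matched for reads, so they do not compare genes of like depth. With a count of 0 only a bound can be given, against a floor of 3 counts per library. The bound itself passed 4-fold for 1 of the 3. The gene at 2049244-2052260 on chromosome 30 had 0 and 13 reads, and the bound was 2.06-fold toward library B. The gene at 5177214-5198525 on chromosome 38 had 0 and 24 reads, and the bound was 3.81-fold toward library B. The gene at 6696785-6700498 on chromosome 38, a member of the inverted pair above, had 12 and 0 reads, and the bound was 8.40-fold toward library A.

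At 2-fold, 12 genes of the sparse chromosomes passed (7.19%), 8 toward library B and 4 toward library A, against 0.755% of all genes, 0.489% toward library B and 0.267% toward library A. Of these, 9 had fewer than 100 reads over both libraries. Most of the 9 met the limit of 10 reads only through the library where they were higher, so the limit fixed part of those ratios. Library B was the deeper, so genes with few reads could meet the limit more easily through it. Among genes with 10 to 100 reads, 9 of 31 on the sparse chromosomes passed (29.0%), against 14.3% of 384 other genes. With 100 to 300 reads it was 2 of 32 (6.25%), against 1.34% of other genes. Among genes with at least 100 reads in 1 library, 3 of 125 passed (2.40%), 1 toward library B and 2 toward library A. The share was 0.16% of all genes so filtered, 0.113% toward library B and 0.0469% toward library A.

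**Figure D5:**
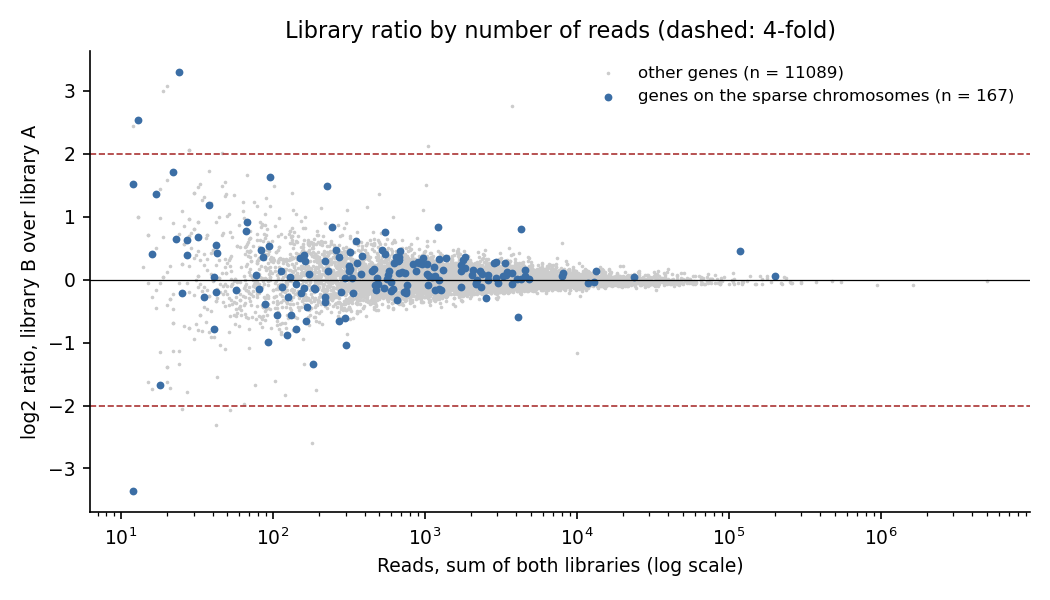
Log2 ratio between libraries (B over A) against the number of reads in both libraries (log scale) for the 167 genes of the gene-sparse small autosomes (blue) and the 11089 other genes (grey), with 4-fold as dashed lines. The 3 blue points beyond 4-fold all have few reads, and the spread narrows as reads increase.

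Within classes of read number, the ratio was more widely spread on the sparse chromosomes than for other genes. The classes were wide, and genes were not matched for reads inside a class. Genes in the lowest class could meet the limit of 10 reads through the deeper library B alone. Among genes with 10 to 100 reads the spread of the log2 ratio (scaled median absolute deviation) was 0.89 for 31 genes of the sparse chromosomes and 0.63 for other genes. With 100 to 300 reads it was 0.53 for 32 genes and 0.33. With 300 to 1000 reads it was 0.27 for 47 genes and 0.19, and with 1000 to 10000 reads 0.14 for 51 genes and 0.09. The median log2 ratio was 0.43 at 10 to 100 reads, against 0.03 for other genes. It was -0.14 at 100 to 300 reads, against 0.06, and 0.13 at 300 to 1000 reads, against 0.02. At 1000 to 10000 reads it was 0.07, against -0.00, so its direction was not the same at all depths.

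The genes named for the largest differences had at least 100 reads in the higher library. They were chosen for the size of the ratio among the 125 such genes, and the intervals do not allow for that choice. Apl_36G0000910 and Apl_37G0001060 met the limit of 100 reads only through the library where they were higher. Apl_36G0000910, at 4768355-4785329 on chromosome 36, had 32 reads from library A and 194 from library B, and was 2.89-fold higher in library B (exact conditional binomial 95% interval 1.98 to 4.34). Its alike gene on chromosome 38, at 6167874-6183881, had 23 and 63 reads, the same direction at a log2 ratio of 0.37. Apl_30G0002010, a gene of 1 exon at 6501693-6508053 on chromosome 30, had 257 and 969 reads and was 1.80-fold higher in library B (1.56 to 2.07).

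In the other direction, Apl_37G0001060, at 5482087-5493601 on chromosome 37, had 101 and 82 reads and was 2.59-fold higher in library A (1.91 to 3.50). Apl_30G0002330, at 7098453-7102214 on chromosome 30, had 151 and 153 reads and was 2.07-fold higher in library A (1.64 to 2.61). Both of these genes had a structural copy elsewhere in the table. For Apl_30G0002330 the copy, on an unplaced contig, had 243 and 3471 reads, and the sum of both genes was 4.38-fold higher in library B, the opposite direction. With reads halved to read pairs the intervals were wider, 1.66 to 3.97 and 1.49 to 2.89. Of the genes of highest level, Apl_30G0001950 differed by 1.04-fold (1.03 to 1.05) and Apl_38G0001200 by 1.37-fold (1.35 to 1.39), both toward library B.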

How the data were processed

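Per the file headers, the authors counted reads over the exons of each gene with featureCounts 2.1.1 in paired-end mode, and the deposited counts are raw. The submitters' processing notes name HISAT2 and SAMtools, with no version. The recorded command holds no option for strand, read pairs or multi-mapping reads, so mates were counted separately, strand was ignored and multi-mapping reads were dropped. Build name, trimming and alignment options: not given in the sources used here. The coordinates are those of the study's assembly.

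CPM and RPKM were computed here from the counts with TMM factors (0.996 and 1.004) of edgeR 4.0.16 in R 4.3.3. Log2 ratios used a prior count of 2, for genes with at least 10 reads in 1 library, over the whole table. With 1 library per label there is no replicate, so no p-value, standard error or test is given. Intervals cover counting error only, and floors of 3 counts cover it only for the library without reads. Since mates were counted separately, these intervals are too narrow. Genes were named by ID when they had the 2 highest levels, or the 2 largest ratios in each direction among those with 100 reads or more in 1 library. On each chromosome the highest and lowest members, the largest cluster, members without reads and arrays of copies are given by position, and other genes by position were chosen after their values were seen. The members, lists and measures were chosen with earlier results of these data known. The calculation was tested on simulated data. Alternatives were other scalings (total counts, DESeq2 1.42.0 size factors, upper quartile), filters, prior counts, depth and definitions of copies and clusters.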

Additional observations from a re-analysis of the deposited data

How the results depend on the processing

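Of 104 alternative values, 89 stayed within the spread or within 1.5 times the reported count and 15 moved. Those that stayed were 53 of 68 for the main results and 36 of 36 for the named genes. The scalings differed little, with a log2 ratio of Apl_30G0001950 of 0.059 by TMM and 0.069 by total counts, so they could move the named ratios little. Some other alternatives changed the measure itself, such as 2-fold for 4-fold. The tally is therefore no measure of how firm the results are. Of the log2 ratios 0 changed sign, while counts, levels and shares cannot do so. The median level of 2.91 RPKM was 5.31 RPKM with at least 50 reads required in 1 library and 6.01 CPM when not divided by length. Leaving out each chromosome in turn gave 2.16 to 3.15 RPKM, and 0.06 to 0.09 for the median log2 ratio. The 3 genes past 4-fold by the fitted ratio became 12 at 2-fold, 1 with library B thinned to the depth of library A and 0 with at least 50 reads. The 35 genes with a copy became 9 for copies on the same chromosome, and the 21 genes under 10 reads became 7 for no reads. Shares of reads in libraries A and B were 0.989% and 1.09% without the 10 most abundant genes of the table, which were also taken out of the total. Other shares, of the full total, were chosen after seeing the data. They were 0.359% and 0.377% without the 2 highest genes, 0.511% and 0.587% without the highest, and 0.673% and 0.707% without the other. The 16 pairs on chromosomes 36 and 38 were 14 to 16 under 3 other settings, also chosen after seeing the data. A span limit of 12 Mb would have taken 266 genes. No paired analysis was possible because the 2 labels have 1 library each. Depth limits the 21 genes with fewer than 10 reads, whose levels and ratios cannot be ordered.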

Other observations

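Genes of the sparse chromosomes also had alike genes on unplaced contigs, sequences that the assembly did not assign to a chromosome. The table held 203 genes on 33 contigs, of which 7 carried a structural copy of a gene described above, in 9 pairs. In 8 of the pairs both genes had enough reads for a ratio between libraries, and in 2 of these the ratios had opposite signs. The gene Apl_30G0002330 on chromosome 30 had 151 and 153 reads in libraries A and B, while its copy, at 28144-31881 on a contig, had 243 and 3471 reads, a log2 ratio of 2.76. Summed, the pair had 394 and 3624 reads and was 4.38-fold higher in library B. The gene at 7249308-7254070 on chromosome 30 had 92 and 226 reads and its copy, at 102543-106604 on another contig, had 136 and 45, a log2 ratio of -2.60.

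In the other 6 pairs both ratios had the same sign. Apl_37G0001060, with 101 and 82 reads, had a copy on a contig at 123531-133767 with 120 and 73 reads, log2 ratios of -1.34 and -1.75. Its copy on chromosome 9, at 21708557-21725921, had 770 and 1509 reads and a log2 ratio of -0.10. The genes at 6718090-6735858 and 6973928-6982717 on chromosome 30 had log2 ratios of 0.46 and 0.26, and their contig copies had 0.31 and 0.29. The gene at 3773220-3775877 on chromosome 37 had a log2 ratio of 0.27 and its contig copy 0.34.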
